A study of Mus musculus with 12 samples.

Results

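The genes described here carry the insulin signal from the receptor at the cell surface to AKT, mTOR and AMPK. They were 42 listed genes, found on the array by an exact match of the gene name among the probes that are not controls, out of 37074 gene names on the array. They had 97 probes, of which 81 had enough signal to be tested, and each of the 42 genes had at least 1 tested probe. For 27 genes several probes were tested. A gene is represented by its brightest tested probe, the one with the highest mean over all arrays, and a value or a test given for a gene is that of this probe unless another is named.

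The hearts of 12 male C57BL6/J mice, labelled heart muscle and 5 months of age, were each profiled on 1 single-colour Agilent array. Type 1 diabetes was induced at 6 to 7 weeks of age by intraperitoneal streptozotocin, which is toxic to pancreatic beta cells, in 5 consecutive daily doses of 50 mg/kg, and mice with a blood glucose of at least 17 mM counted as diabetic. Pargyline, an inhibitor of monoamine oxidase (MAO), or vehicle followed for 12 weeks, at a daily pargyline dose of 50 mg/kg. This gave 4 groups of 3 mice, namely vehicle-treated controls (C), controls with pargyline (C + P), diabetic mice with vehicle (D) and diabetic mice with pargyline (D + P). No group carried a genetic change. As a model, streptozotocin damages the source of insulin, and the pathway genes themselves are intact. The study gives no insulin level for these mice. The study asked how diabetes and MAO inhibition alter gene expression in the heart, including the arm that leads to AKT.

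Insulin binds its receptor, whose substrates Irs1 and Irs2 recruit phosphoinositide 3-kinase (PI3K). The lipid that PI3K makes brings PDK1 and AKT to the membrane, and AKT then acts on glycogen synthase kinases, on the RabGAP proteins that hold back the glucose transporter GLUT4, and on the TSC complex, which restrains RHEB and mTOR complex 1. AMPK, the sensor of low cellular energy, acts in the opposite direction on mTOR complex 1. In the heart this network sets glucose uptake, protein synthesis and cell size, and much of its control is by phosphorylation, which an mRNA array does not measure.

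Sequences are shown for members on which the results below turn. The 250 bases before the RefSeq start (build GRCm38.p6) are given for both insulin receptor substrates and for *Rheb*, since *Irs2* and *Rheb* had the largest differences between D and C among the members. Capitals mark the E-box CACGTG, which reads the same on both strands. *Irs2* lies on chromosome 8 (minus strand, chr8:11008930-11009179), *Irs1* on chromosome 1 (minus strand, chr1:82291440-82291689) and *Rheb* on chromosome 5 (minus strand, chr5:24842362-24842611).
Irs2: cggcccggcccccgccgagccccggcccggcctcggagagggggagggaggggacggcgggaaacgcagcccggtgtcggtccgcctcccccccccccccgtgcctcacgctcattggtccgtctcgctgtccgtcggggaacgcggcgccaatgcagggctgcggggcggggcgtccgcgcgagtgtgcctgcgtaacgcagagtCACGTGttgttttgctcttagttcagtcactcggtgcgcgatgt
Irs1: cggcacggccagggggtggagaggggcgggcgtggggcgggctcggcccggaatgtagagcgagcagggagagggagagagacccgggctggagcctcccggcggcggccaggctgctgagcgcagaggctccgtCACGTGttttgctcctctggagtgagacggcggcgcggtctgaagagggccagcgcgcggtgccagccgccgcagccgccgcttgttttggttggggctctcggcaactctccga
Rheb: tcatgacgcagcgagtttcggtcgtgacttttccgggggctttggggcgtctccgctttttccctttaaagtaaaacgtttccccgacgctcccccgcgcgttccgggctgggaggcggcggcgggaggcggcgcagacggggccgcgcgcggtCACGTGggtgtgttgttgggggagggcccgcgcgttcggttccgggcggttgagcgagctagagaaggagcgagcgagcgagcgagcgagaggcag

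Promoter windows from 250 bases before to 50 after a start were found for 39 of the 42 genes. The E-box was present in at least 1 window of 4 of them (10.3%), namely *Irs1*, *Irs2*, *Rheb* and *Eif4e*, against 8.09% of all 27025 genes with a window. The forkhead core GTAAACA, searched on both strands, was present in 1 of the 39 (*Akt1*, 2.56%) against 4.05% of all genes. Both shares were near those of all promoters, and a match is a description of the letters only.

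*Grb10*, an adaptor that binds the receptor and dampens its signal, was assayed by the study as a target of miR-193a-3p. The mature microRNA is shown with its seed (bases 2 to 8) in capitals, followed by the stretch of the cloned *Grb10* segment around the match to that seed, with the match in capitals. The match began at base 182 of the cloned segment and was its only one. The microRNA lies on chromosome 11 (chr11:79712009-79712030, plus strand, GRCm38.p6).
mmu-miR-193a-3p: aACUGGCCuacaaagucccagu
Grb10 site: gcgctttgtaaagcaGGCCAGTggcaagct

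The arrays differed in quality. Between 23556 and 29231 of 59305 spots per array that are not controls were well above background, and the lowest counts were those of D replicate 1 (23556) and D replicate 3 (24666). The median coefficient of variation of replicate spots, as the scanner files give it, ran from 3.89% to 23.2%, and it was highest on replicate 1 of every group, D replicate 1 above all. C and D shared 1 slide and C + P and D + P the other, so that pargyline and slide cannot be told apart. On each slide the non-diabetic arrays lay in row 1 and the diabetic arrays in row 2, so that diabetes and row cannot be told apart either. All 6 cardiomyocyte markers were well above background on all 12 arrays. Of the adipocyte markers, by their brightest probe, *Lep* was well above background on 12 arrays, *Cfd* on 5 and *Adipoq*, *Plin1* and *Retn* on none. A dimmer, untested *Retn* probe was so on 1 array. The mean log2 level over 6 immune cell markers was 8.35 to 8.63 on the diabetic arrays and 8.72 to 9.18 on the non-diabetic arrays, without overlap, and that over 5 fibroblast markers was higher in diabetes without overlap, at 11.727 to 11.766 in D against 11.565 to 11.620 in C and at 11.597 to 11.739 in D + P against 11.456 to 11.545 in C + P. Single markers did not all follow these means. Of the 5 fibroblast markers 4 were higher in D than in C and 3 in D + P than in C + P. *Col1a1* was lower in both comparisons (−0.17 and −0.27). Of the 5 immune markers tested 4 were lower in both comparisons and 1, *Cd3e*, was higher in both (0.15 and 0.02). The part of the fibroblast and immune markers in the results below was not tested. In whole heart muscle, fewer cells of a type and less RNA per cell cannot be told apart.

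No member passed the threshold in any comparison. With limma and Benjamini-Hochberg adjustment over 30859 tested probes, 0 of 42 genes had an adjusted p under 0.05 for D against C, where 0.00648% of all tested probes were called, and 0 of 42 for D + P against C + P, where 0.0454% were. The count was likewise 0 of 42 for diabetes averaged over pargyline, the mean of those 2 differences (0.107% of all probes), for C + P against C (0.0324%), for D + P against D (0% of all probes) and for the interaction, the difference between the 2 diabetes effects (0.00648%). The *t*-test that the methods of the study name called 0 members in the 4 pairwise comparisons as well, with Benjamini-Hochberg or Bonferroni correction. The log2 differences that follow are therefore measured values with their standard errors (SE), not calls. The smallest adjusted p of a member in the averaged comparison was 0.203, for *Eif4ebp1*.

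Before adjustment, 8 members (2 higher, 6 lower) had a limma p under 0.05 for D against C, which was 19% of the members and 10.8% of all tested probes. By the *t*-test the count was 6. For D + P against C + P the count was 2 by either test (4.76% of members and 7.46% of all probes). For the average it was 10, with 4 higher and 6 lower (23.8% of members and 11.4% of all probes). The median averaged difference over the members was −0.05 on the log2 scale against −0.01 over all tested probes, and the members ran from −0.58 for *Pik3r3* to 0.48 for *Eif4ebp1*. The fold difference of *Pik3r3* was 1.49, and without D replicate 1 its averaged difference was −0.32 and that of *Pik3r1* −0.54.

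A plainer reading is how often the 3 arrays of a group lay wholly above or below the 3 of the other. This held for 18 of 42 members between D and C (42.9%; 8 higher and 10 lower in D), against 22.3% of all tested probes. Of the 39 other tested probes of these genes 9 separated between D and C (23.1%), near the share of all probes. The members were brighter than most probes, with 33 of 42 at a mean log2 signal of 8 or more against 41.3% of all tested probes. Among probes between 8 and 10 the share was 26% of all and 7 of 13 members, and from 10 upward it was 24.9% of all and 8 of 20 members. Between D + P and C + P only 5 of 42 members separated (11.9%), against 13.9% of all tested probes. In both comparisons at once 0 members were higher in diabetes (1.21% of all probes) and 2 were lower (1.29% of all probes), both of them regulatory subunits of PI3K.

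**Figure D1:**
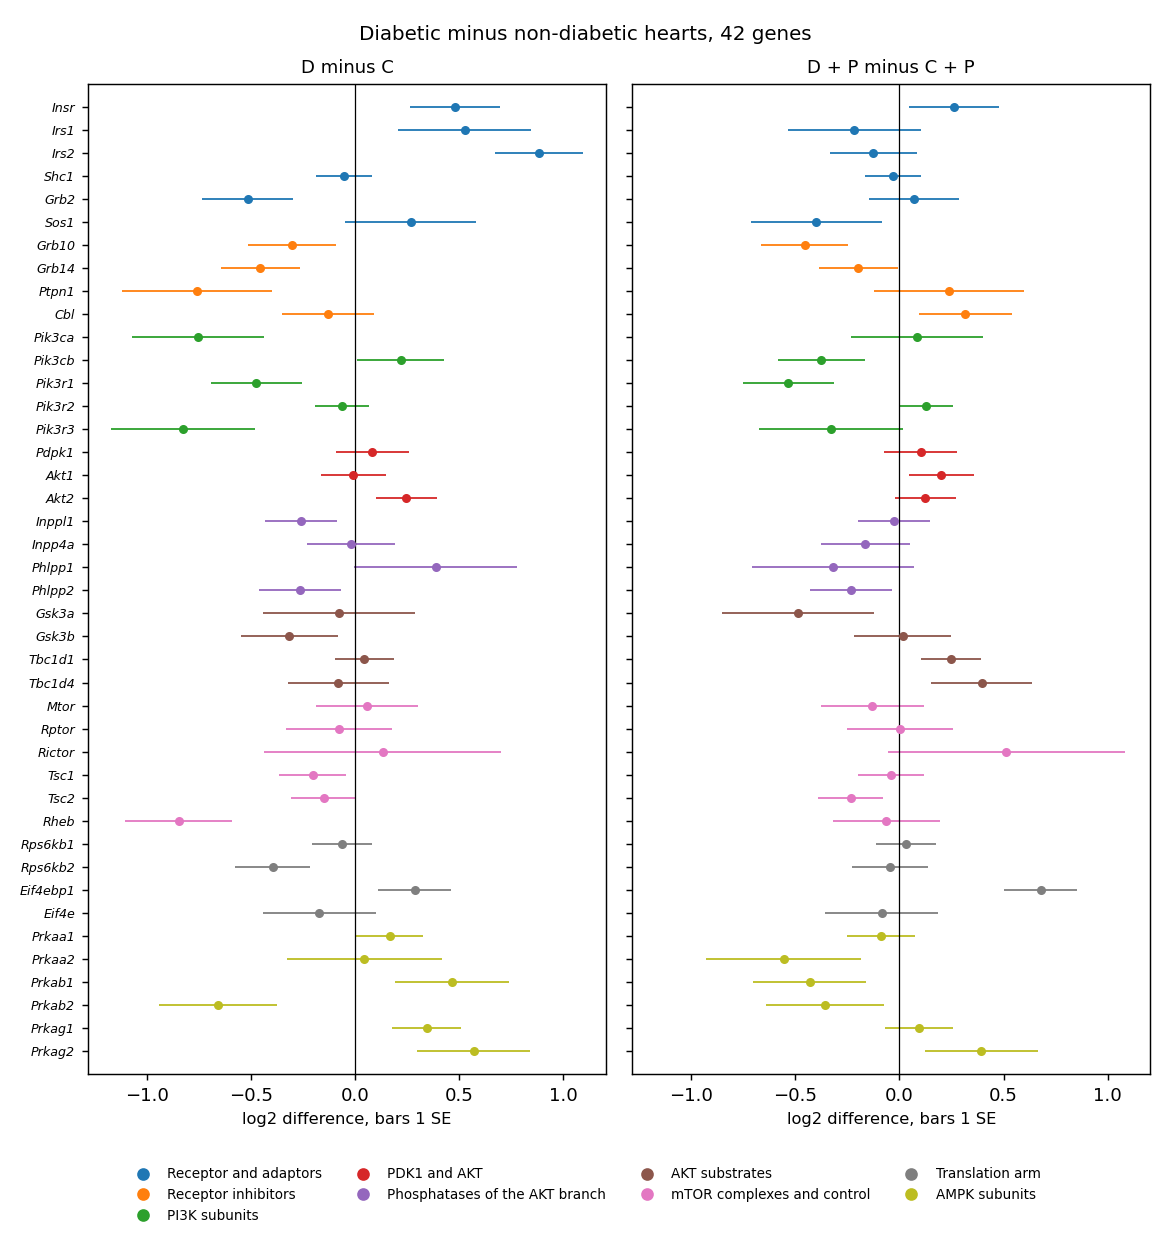
Log2 differences (horizontal axis) of the 42 genes, ordered and coloured by role, between diabetic and non-diabetic hearts without pargyline (left) and with it (right). Points are limma estimates from 3 arrays a group and bars are 1 SE. *Irs2* stands at 0.88 on the left and −0.12 on the right, and *Pik3r1* and *Pik3r3* lie below 0 in both panels.

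D replicate 1 was the array farthest from the middle one of its group for 27 of 42 members (51.2% of all tested probes), as C + P replicate 1 was in its group (27 of 42 members, 53.6% of all tested probes). Without D replicate 1, 3 members in place of 8 had an unadjusted p under 0.05 for D against C, namely *Irs2*, *Rheb* and *Pik3r1*, while 12.7% of all tested probes did. The difference of 4 members changed sign. The arrays of 26 members then separated between D and C, but so did those of 41.3% of all tested probes, since 2 arrays against 3 separate more readily.

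**Figure D2:**
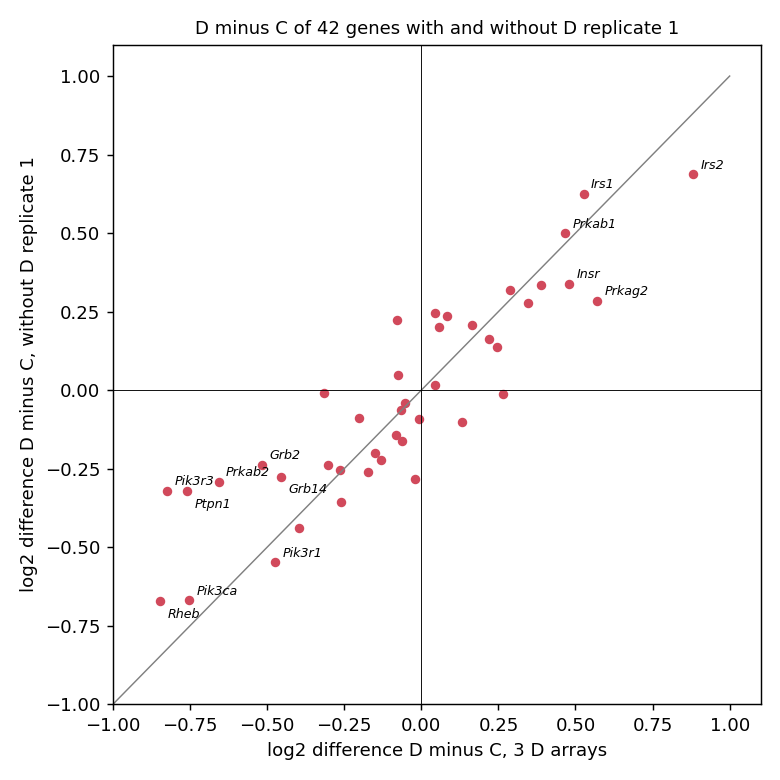
Log2 difference D minus C of the 42 genes with all 3 D arrays (horizontal axis) and without D replicate 1 (vertical axis); each point is a gene and the grey line marks equal values. *Pik3r1* and *Irs1* lie farther from 0 without that array (−0.55 and 0.63), *Rheb* goes from −0.85 to −0.67 and *Pik3r3* from −0.83 to −0.32.

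The receptor and its substrates read higher in D than in C. *Irs2*, the substrate through which insulin acts on many metabolic genes and itself a gene known to respond to insulin and fasting, gave 8.87, 9.23 and 9.17 on the C arrays, 10.36, 10.05 and 9.5 on the D arrays, 10.05, 10.08 and 10.16 on the C + P arrays and 9.98, 10.08 and 9.86 on the D + P arrays (log2 normalised signal, replicates 1 to 3). The 3 C arrays lay below the other 9, which overlapped among themselves. *Irs2* was 0.88 ± 0.21 (SE) higher in D than in C (1.84-fold, adjusted p = 0.27), and 0.69 ± 0.19 higher without D replicate 1. It passed the adjusted threshold for D against C only with arrays weighted by their quality. Under pargyline the difference between D + P and C + P was −0.12 ± 0.21 (adjusted p = 0.91). The *Irs2* probe lies at chr8:11004490-11004549 (mm9, the build of the files), and it was the only *Irs2* probe tested.

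*Insr*, the insulin receptor itself, read 7.27, 7.80 and 7.74 in C, 8.37, 8.02 and 7.87 in D, 7.94, 7.60 and 7.30 in C + P and 7.94, 7.91 and 7.78 in D + P. All D arrays were above all C arrays, but C + P and D + P overlapped. The difference was 0.48 ± 0.22 in D (adjusted p = 0.46), 0.26 ± 0.22 under pargyline (adjusted p = 0.81) and 0.37 ± 0.15 on average (adjusted p = 0.40). Without C replicate 1 the first of these *Insr* differences was 0.31, and without C + P replicate 3 the second was 0.11. A second, dim *Insr* probe, well above background on 1 of 12 arrays, differed by −0.14 ± 0.31 between D and C.

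*Irs1*, the other main substrate, read 9.20, 9.46 and 9.25 in C, 9.63, 9.99 and 9.88 in D, 10.40, 9.51 and 8.80 in C + P and 9.38, 9.43 and 9.25 in D + P. D lay above C without overlap, while the C + P arrays spread over more than the whole range of the other groups. The difference was 0.53 ± 0.32 for D against C (adjusted p = 0.55) and −0.22 ± 0.32 for D + P against C + P (adjusted p = 0.90), and the averaged difference of 0.15 ± 0.23 was negative without C + P replicate 3 (−0.04) and with another background correction (−0.03). The adaptors *Shc1*, *Grb2* and *Sos1*, which lead to the RAS branch, ran from −0.52 (*Grb2*) to 0.27 (*Sos1*) for D against C, and from −0.40 (*Sos1*) to 0.07 (*Grb2*) for D + P against C + P. Without D replicate 1 the difference between D and C was −0.24 for *Grb2* and −0.01 for *Sos1*. For *Sos1* the difference between D + P and C + P was −0.13 without C + P replicate 1. A dimmer *Sos1* probe, with a mean log2 signal of 6.33, gave −0.93 ± 0.29 for D against C (adjusted p = 0.34), without overlap and in the opposite direction to the brightest.

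The 4 inhibitors of the receptor, the adaptors *Grb10* and *Grb14*, the phosphatase *Ptpn1* and the ubiquitin ligase *Cbl*, had negative differences for D against C, from −0.76 (*Ptpn1*) to −0.13 (*Cbl*). The arrays of *Grb14* and *Ptpn1* separated and those of *Grb10* and *Cbl* overlapped. Of the 4, *Grb14* alone had an unadjusted p under 0.05 (−0.45 ± 0.19, adjusted p = 0.44). For D + P against C + P 2 of the 4 were lower and 2 higher. Without D replicate 1 *Ptpn1* stood at −0.32 and *Grb14* at −0.28 for D against C, and without D replicate 3 *Cbl* stood at −0.03.

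*Grb10*, whose site for miR-193a-3p is printed above, read 7.89, 8.31 and 8.29 in C, 7.74, 7.71 and 8.15 in D, 8.43, 8.40 and 8.33 in C + P and 8.22, 8.03 and 7.55 in D + P on its brightest probe. D overlapped C, whereas all D + P arrays lay below all C + P arrays. The difference was −0.30 ± 0.21 in D (adjusted p = 0.60), −0.45 ± 0.21 under pargyline (adjusted p = 0.67) and −0.38 ± 0.15 on average (adjusted p = 0.39). Without D + P replicate 3 the *Grb10* difference under pargyline was −0.26. Both other *Grb10* probes, with a mean log2 signal of 6.13 and 6.10, were also lower in D than in C, with differences of −0.51 ± 0.23 (adjusted p = 0.46) and −0.88 ± 0.31 (adjusted p = 0.39), without overlap between D and C. Under pargyline they differed by 0.08 and 0.16 between D + P and C + P, in the opposite direction to the brightest probe.

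**Figure D3:**
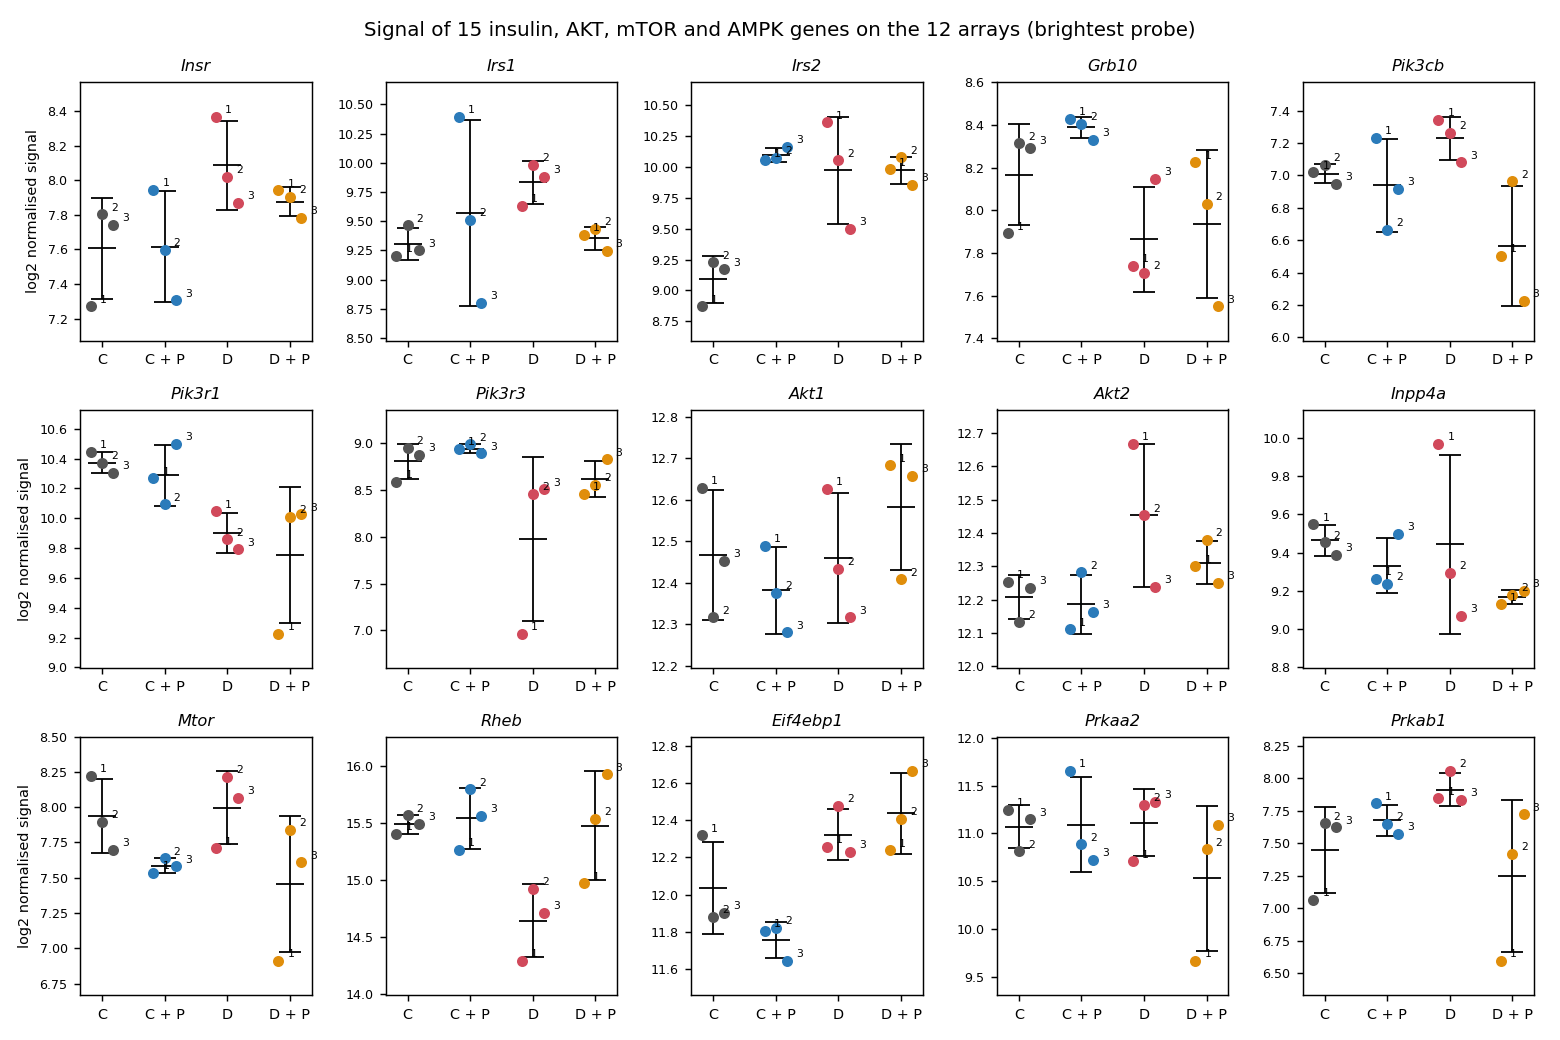
Log2 normalised signal of the brightest probe (vertical axis, scaled for each gene) of 15 genes on the 12 arrays. Points are arrays with their replicate number, and bars give the mean and SD of each group of 3. The C arrays of *Irs2* lie below all others, those of *Pik3r1* and *Pik3r3* lie above the D arrays, and D replicate 1 sets much of the spread of *Pik3r3* and *Inpp4a*.

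PI3K consists of a catalytic subunit (*Pik3ca*, *Pik3cb*) and a regulatory subunit (*Pik3r1*, *Pik3r2*, *Pik3r3*) that docks on the receptor substrates. Of these 5 genes 4 had a negative averaged difference. *Pik3r2* (0.03) and *Pik3cb* (−0.08, and 0.01 without D + P replicate 3) were near 0. *Pik3cb* was higher in D than in C (0.22), without overlap. *Pik3r1*, the main regulatory subunit of most tissues, read 10.44, 10.37 and 10.31 in C, 10.05, 9.86 and 9.79 in D, 10.27, 10.09 and 10.50 in C + P and 9.23, 10.01 and 10.03 in D + P. Diabetic arrays were below non-diabetic arrays without overlap in both comparisons, with differences of −0.47 ± 0.22 (adjusted p = 0.46) and −0.53 ± 0.22 (adjusted p = 0.64). The averaged difference was −0.50 ± 0.15 (1.42-fold lower, adjusted p = 0.27), and over the alternative settings it ran from −0.57 to −0.37 with adjusted p from 0.12 to 0.52. Without D replicate 1 the difference between D and C was −0.55 ± 0.24, and without D + P replicate 1 that between D + P and C + P was −0.27.

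*Pik3r3*, a regulatory subunit lacking the SH3 domain of *Pik3r1*, read 8.59, 8.95 and 8.87 in C, 6.97, 8.46 and 8.51 in D, 8.94, 8.99 and 8.89 in C + P and 8.46, 8.55 and 8.83 in D + P. Again neither comparison overlapped, but D replicate 1 stood far below the other D arrays. The difference was −0.83 ± 0.35 for D against C (adjusted p = 0.44), −0.32 ± 0.17 without D replicate 1, and −0.33 ± 0.35 for D + P against C + P (adjusted p = 0.85). The number of members that separated in both comparisons was 4 without C replicate 1 and 5 without C + P replicate 1, against 3.38% and 5.4% of all tested probes. *Pik3ca*, the alpha catalytic subunit, differed by −0.75 ± 0.32 between D and C (adjusted p = 0.44), without overlap, and by 0.08 ± 0.32 between D + P and C + P.

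PDK1 and both AKT genes differed little between groups. *Akt1* read 12.63, 12.32 and 12.45 in C, 12.63, 12.43 and 12.32 in D, 12.49, 12.38 and 12.28 in C + P and 12.68, 12.41 and 12.66 in D + P. *Akt2*, the form most tied to glucose uptake, read 12.25, 12.13 and 12.24 in C, 12.67, 12.45 and 12.24 in D, 12.11, 12.28 and 12.16 in C + P and 12.30, 12.38 and 12.25 in D + P. All 4 groups overlapped for both genes. Averaged over pargyline, the difference was 0.10 ± 0.11 for *Akt1* (adjusted p = 0.77), 0.19 ± 0.10 for *Akt2* (adjusted p = 0.53) and 0.09 for *Pdpk1*, which encodes PDK1.

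The phosphatases that end the AKT signal act on its lipid (*Inppl1*, *Inpp4a*) or on AKT itself (*Phlpp1*, *Phlpp2*), and 0 of the 4 had an unadjusted limma p under 0.05 for the brightest probe in any comparison. *Inpp4a*, which the study examined as a target of miR-27a-3p, read 9.55, 9.45 and 9.39 in C, 9.97, 9.29 and 9.07 in D, 9.26, 9.23 and 9.5 in C + P and 9.13, 9.18 and 9.20 in D + P. D replicate 1 was the highest of the 12 arrays and D replicate 3 the lowest. The difference was −0.02 ± 0.21 for D against C and −0.28 ± 0.15 without D replicate 1 (adjusted p = 0.47), and it was −0.16 ± 0.21 for D + P against C + P, where the arrays did not overlap. The segment the study cloned for *Inpp4a* held 0 exact matches to bases 2 to 8 of that microRNA. Other kinds of site were not searched for, so this count does not tell whether the segment holds a site. The study reported an interaction of miR-27a-3p with *Inpp4a* by luciferase assay, and lower *Inpp4a* mRNA in cardiomyocytes overexpressing that microRNA. The 3 dimmer *Inpp4a* probes, with mean log2 signals of 4.41 to 5.75, gave −1.29 ± 0.40, −0.88 ± 0.28 and −0.25 ± 0.44 for D against C, of which the first 2 had an adjusted p = 0.34 and 0.34. They were well above background on 1, 7 and 9 of 12 arrays.

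**Figure D4:**
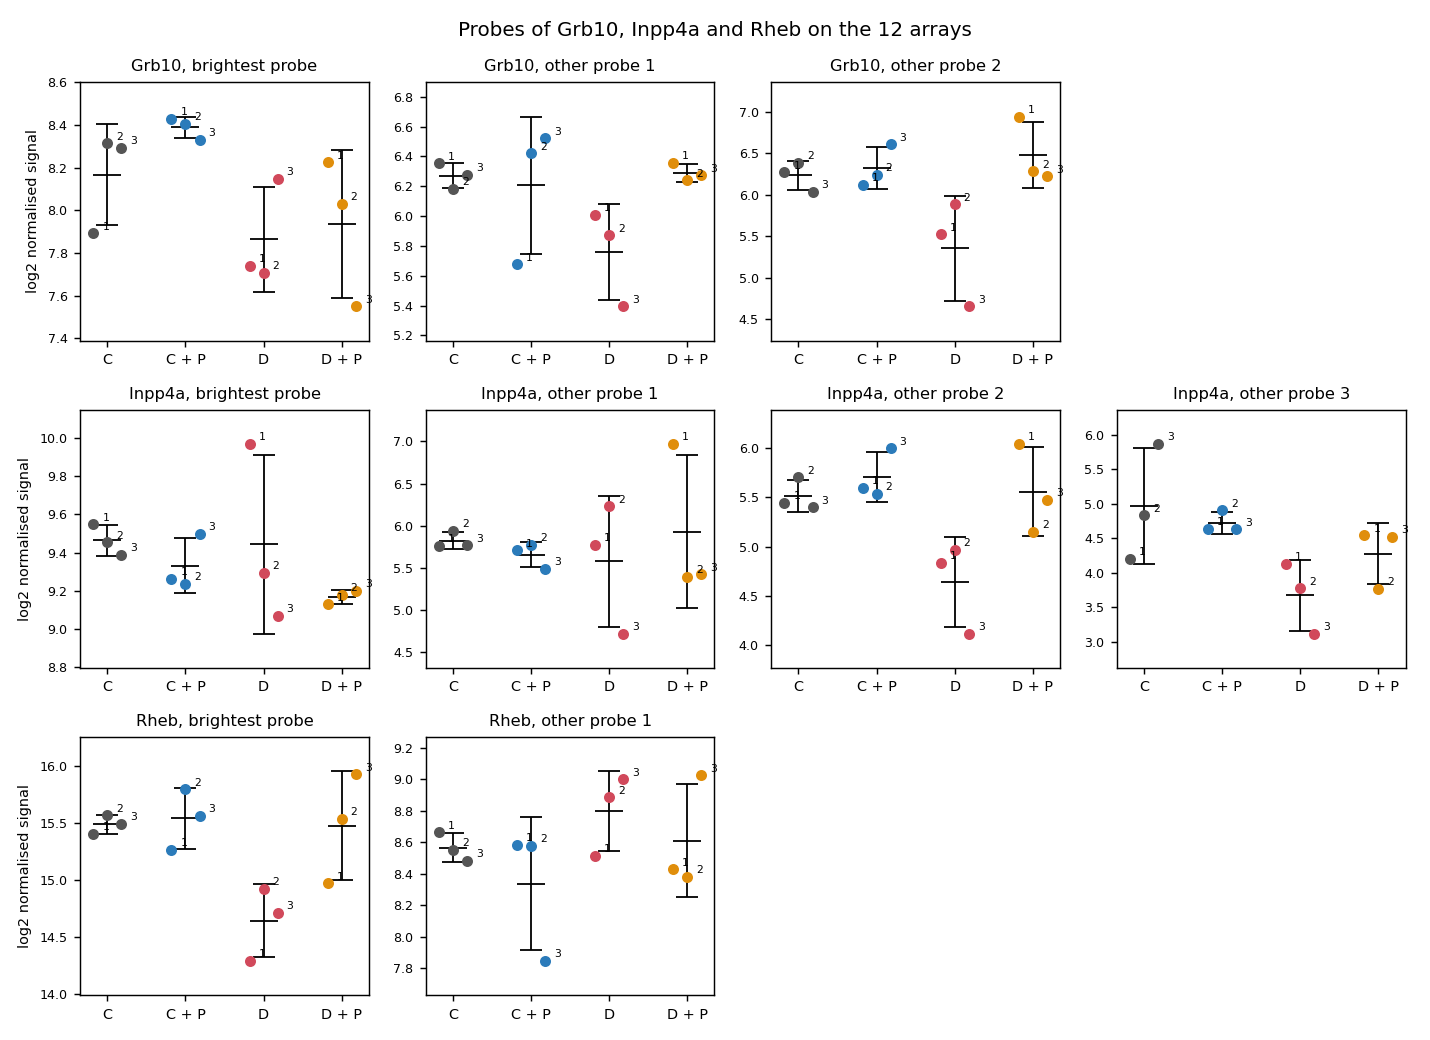
Log2 normalised signal (vertical axis, scaled for each panel) of every tested probe of *Grb10*, *Inpp4a* and *Rheb* on the 12 arrays, brightest probe first. Points are arrays with their replicate number, and bars give the mean and SD of 3. The brightest *Rheb* probe is lowest in D and its other probe is not.

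The AKT substrates *Gsk3a* and *Gsk3b*, the glycogen synthase kinases, and *Tbc1d1* and *Tbc1d4*, the RabGAP proteins that control GLUT4, had averaged differences from −0.28 (*Gsk3a*) to 0.16 (*Tbc1d4*), and these were −0.03 without D + P replicate 3 and 0.00 without C + P replicate 1. Of these 4, 0 had an unadjusted p under 0.05 for the brightest probe in any comparison by limma. A dimmer *Tbc1d1* probe, with a mean log2 signal of 6.18, gave −1.01 ± 0.36 for D against C (adjusted p = 0.39) and 1.35 ± 0.36 for D + P against D (adjusted p = 0.20), and another *Tbc1d4* probe gave 0.51 ± 0.21 for D + P against C + P (adjusted p = 0.64). *Gsk3a* read 10.29 on D + P replicate 3, below each of the other 11 arrays (11.43 to 12.04), and *Gsk3b* read 10.75 on D replicate 1, below each of the other 11 (11.60 to 11.87).

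Of the genes of the mTOR complexes and their control, *Mtor*, the kinase itself, read 8.22, 7.90 and 7.70 in C, 7.71, 8.22 and 8.07 in D, 7.53, 7.64 and 7.58 in C + P and 6.91, 7.84 and 7.61 in D + P. C and D overlapped, and so did C + P and D + P. The averaged difference was −0.04 ± 0.17 (adjusted p = 0.96), and its sign was not stable across settings. A second *Mtor* probe, with a mean log2 signal of 6.08, was higher in D than in C by 0.58 ± 0.20 (adjusted p = 0.38), without overlap.

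*Rheb*, the small GTPase that switches on mTOR complex 1, read 15.41, 15.57 and 15.50 in C, 14.29, 14.92 and 14.71 in D, 15.27, 15.80 and 15.57 in C + P and 14.97, 15.54 and 15.93 in D + P. All D arrays lay below all C arrays and all D + P arrays. The difference was −0.85 ± 0.26 for D against C (1.80-fold lower, adjusted p = 0.33), −0.67 ± 0.27 without D replicate 1 (adjusted p = 0.34) and −0.06 ± 0.26 for D + P against C + P. The probe (chr5:24316120-24316179, mm9) is named in the files for an Ensembl transcript, whereas the other *Rheb* probe, named for the RefSeq transcript, differed by 0.23 ± 0.25 in the other direction between D and C (adjusted p = 0.74). The 4 remaining genes, *Rptor* and *Rictor* of the complexes and *Tsc1* and *Tsc2* of the brake on RHEB, had averaged differences from −0.19 (*Tsc2*) to 0.32 (*Rictor*, −0.03 without C + P replicate 1), none with an unadjusted p under 0.05.

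*Eif4ebp1* encodes the repressor of cap-dependent translation that mTOR complex 1 inactivates, and it had the smallest p of the averaged comparison. It read 12.32, 11.88 and 11.90 in C, 12.26, 12.48 and 12.23 in D, 11.81, 11.82 and 11.65 in C + P and 12.24, 12.41 and 12.66 in D + P. The D + P arrays lay above all C + P arrays, while C replicate 1 fell within the D range. The difference was 0.29 ± 0.18 for D against C (adjusted p = 0.55), 0.68 ± 0.18 for D + P against C + P (1.60-fold, adjusted p = 0.36) and 0.48 ± 0.12 on average (1.40-fold, adjusted p = 0.20). Its adjusted p ran from 0.054 to 0.47 over the alternative settings, and the difference was positive in each. The other genes of this arm were the S6 kinases *Rps6kb1* and *Rps6kb2* and the cap-binding protein *Eif4e*. They had averaged differences from −0.22 (*Rps6kb2*, −0.125 without D replicate 3) to −0.02 (*Rps6kb1*), none with an unadjusted p under 0.05.

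AMPK is built of a catalytic alpha subunit (*Prkaa1*, *Prkaa2*), a scaffolding beta subunit (*Prkab1*, *Prkab2*) and a nucleotide-binding gamma subunit (*Prkag1*, *Prkag2*). *Prkaa2*, the alpha subunit typical of muscle, read 11.25, 10.81 and 11.15 in C, 10.71, 11.30 and 11.33 in D, 11.65, 10.89 and 10.73 in C + P and 9.67, 10.84 and 11.09 in D + P. Both pairs of groups overlapped, with D + P replicate 1 far below the rest, and the differences were 0.04 ± 0.37 and −0.56 ± 0.37 (adjusted p = 0.97 and adjusted p = 0.78). For *Prkaa2* the second difference was −0.13 without D + P replicate 1, and the first was 0.25 without D replicate 1. The beta subunits went different ways between D and C, with *Prkab1* at 0.47 ± 0.27 (adjusted p = 0.54) and *Prkab2* at −0.66 ± 0.28 (adjusted p = 0.45). Without C replicate 1 *Prkab1* stood at 0.27, and without D replicate 1 *Prkab2* stood at −0.29. Both gamma subunits read higher in D than in C, *Prkag1* by 0.34 ± 0.17 and *Prkag2* by 0.57 ± 0.27, without overlap, and *Prkag2* had an averaged difference of 0.48 ± 0.19 (adjusted p = 0.39). Without D replicate 1 *Prkag2* was 0.29 ± 0.24 higher in D, and without C replicate 1 *Prkag1* was 0.20 higher.

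Pargyline was compared with vehicle between slides. The mean log2 level over the 5 fibroblast markers was lower in C + P than in C, and that over 5 endothelial markers was 10.602 to 11.038 in D + P against 10.448 to 10.594 in D, both without overlap. That over 4 atrial markers was also lower in D + P than in D and C + P without overlap, but of these *Sln* and *Bmp10* were well above background on none of the arrays and *Myl7* on 4 of 12, and *Myl4*, well above background on all, differed by −0.04 between D + P and D. The part of these markers in the results was not tested. Between C + P and C, 1 of 42 members had an unadjusted p under 0.05 by limma (2.38% of members and 4.43% of all tested probes) and 2 by the *t*-test, and the arrays of 6 members separated (14.3% of members and 15.4% of all probes). The 1 gene was *Irs2*, with a difference of 1.01 ± 0.21 (2.01-fold, adjusted p = 0.38). With arrays weighted by their quality its adjusted p was 0.011. In the diabetic hearts *Irs2* differed by 0.00 ± 0.21 between D + P and D. The effect of diabetes on *Irs2* accordingly differed by −1.01 ± 0.30 between pargyline and vehicle (interaction, adjusted p = 0.61), and both effects rest on the same 3 low C arrays.

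Between D + P and D, 4 members had an unadjusted p under 0.05 by limma (9.52% of members and 13.3% of all tested probes) and 6 by the *t*-test, and the arrays of 10 separated (23.8% of members and 17% of all probes). *Rheb* differed by 0.84 ± 0.26 (1.79-fold, adjusted p = 0.23), with the second probe at −0.19 ± 0.25. *Pik3ca*, the alpha catalytic subunit of PI3K, differed by 0.75 ± 0.32 (adjusted p = 0.34), with overlap. *Pik3cb*, the beta catalytic subunit, read 7.34, 7.27 and 7.08 in D, 6.50, 6.96 and 6.22 in D + P, 7.02, 7.06 and 6.95 in C and 7.23, 6.66 and 6.92 in C + P. All D + P arrays were below all D arrays, with a difference of −0.67 ± 0.21 (adjusted p = 0.24), and its dimmer probe, well above background on 5 of 12 arrays, gave 0.27 ± 0.31.

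*Prkab1*, the AMPK beta 1 subunit, read 7.84, 8.06 and 7.84 in D, 6.59, 7.42 and 7.72 in D + P, 7.06, 7.65 and 7.62 in C and 7.81, 7.65 and 7.57 in C + P. D lay above both C and D + P without overlap. The difference between D + P and D was −0.67 ± 0.27 (adjusted p = 0.33), and the interaction was −0.90 ± 0.39 (adjusted p = 0.70). Without D + P replicate 1 they were −0.34 and −0.57. The other *Prkab1* probe differed by 0.00 ± 0.33 between D + P and D. By role, all 4 receptor inhibitors had positive differences between D + P and D (0.07 to 0.77) and 5 of the 6 AMPK genes had negative ones, none of the inhibitors with an unadjusted p under 0.05 and *Prkab1* alone among the AMPK genes. Both D against C and D + P against D use the same D arrays. Without D replicate 1 the inhibitors differed by 0.01 (*Grb10*), 0.23 (*Grb14*), 0.33 (*Ptpn1*) and 0.57 (*Cbl*) between D + P and D. The *Grb10* difference was negative without D + P replicate 1 (−0.07) and without D replicate 2 (−0.01). Over all members the interaction had an unadjusted p under 0.05 for 2 of 42 (4.76% of members and 7.03% of all tested probes), *Irs2* and *Prkab1*.

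**Figure D5:**
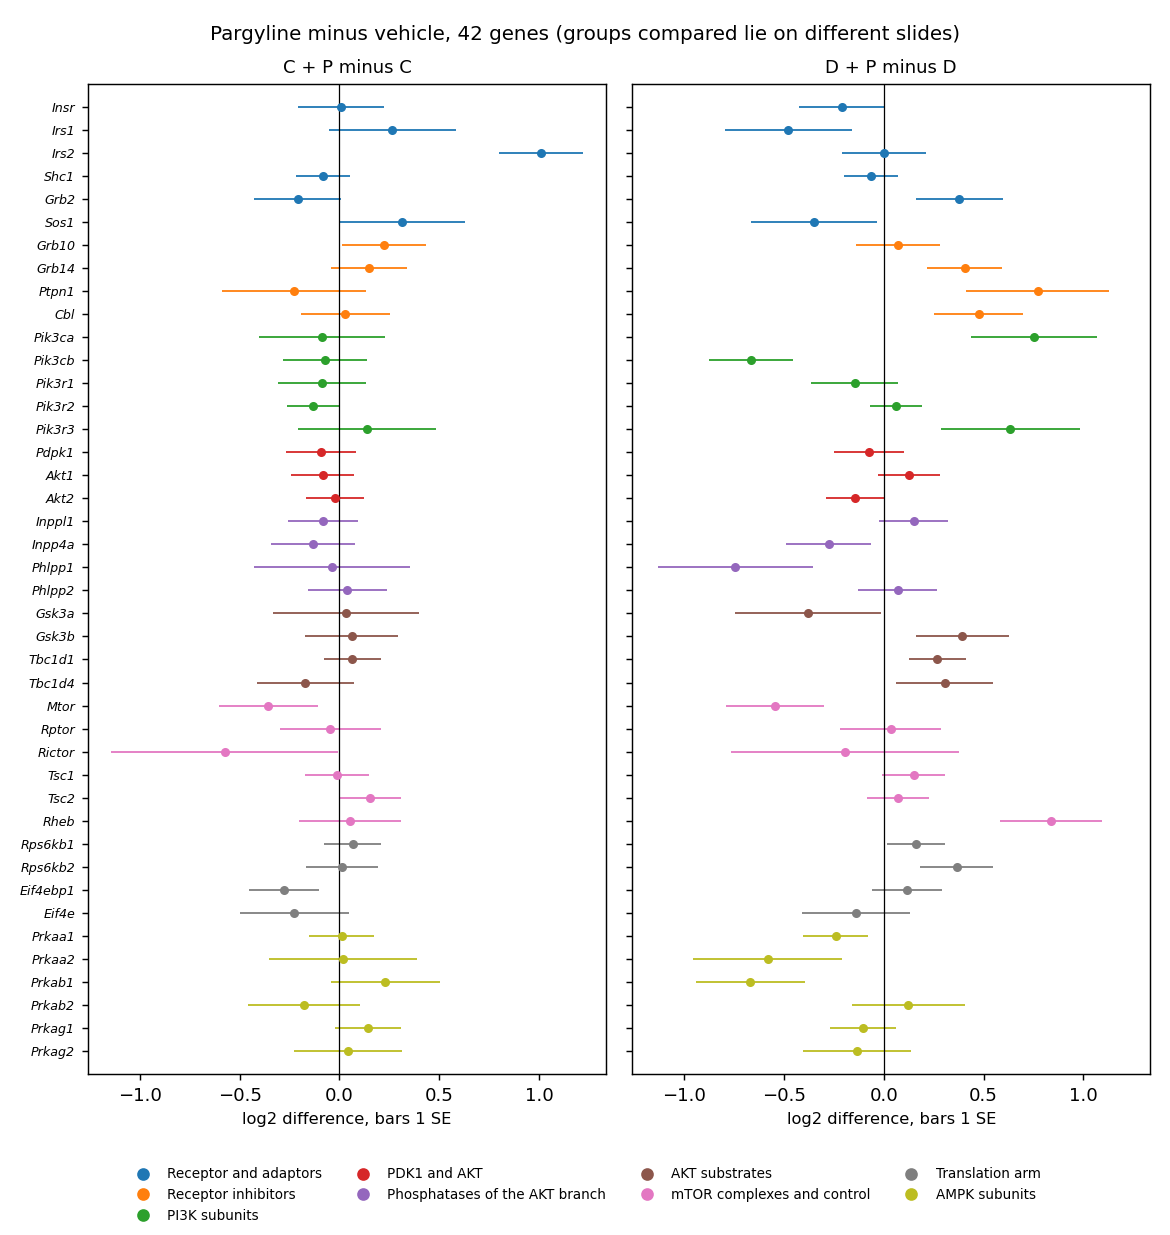
Log2 differences (horizontal axis) of the 42 genes, ordered and coloured by role, between pargyline and vehicle in non-diabetic (left) and diabetic hearts (right). Points are limma estimates from 3 arrays a group, bars are 1 SE, and the groups compared lie on different slides. *Irs2* stands at 1.01 on the left and at 0.00 on the right, and *Rheb* stands at 0.05 and 0.84.

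Probes of the same gene often differed. Of the 27 genes with several tested probes, 15 had all probes on the same side of 0 in the averaged diabetes comparison and 12 did not. For C + P against C 8 of 27 agreed in sign, and for D + P against D 11 of 27. The 39 probes that were not the brightest of their gene had a median difference of −0.03 for D against C, with 6 lower and 1 higher at an unadjusted p under 0.05 (10.8% of all tested probes), and their smallest adjusted p was 0.34. These 7 were probes of *Sos1*, *Grb10*, *Tbc1d1*, *Rptor* and *Inpp4a* (2 probes), which were lower, and of *Mtor*. The *Rptor* probe gave −1.17 for D against C, whereas the brightest gave −0.08. For D + P against D the median of the 39 was 0.13, with 7 higher and 2 lower at an unadjusted p under 0.05 (13.3% of all tested probes) and a smallest adjusted p of 0.19, for the *Mtor* probe at −0.78. Among the 7 were probes of *Grb10* at 1.13 and of *Inpp4a* at 0.92. Among members' probes with a mean log2 signal under 6, 11 in all, the median was −0.75 for D against C and 0.58 for D + P against D, whereas over all 9490 tested probes under that level the medians were −0.05 and 0.00.

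Of 85 other genes of the same pathways, 84 were on the array and 79 were tested, and 0 passed the adjusted threshold in any comparison by limma. Before adjustment 9 of 79 (5 higher and 4 lower, 11.4%) had a p under 0.05 in the averaged comparison, the same share as all tested probes, and the median difference was 0.02. The arrays of 5 of the 79 lay lower in diabetes without overlap in both diabetes comparisons (6.33%, against 1.29% of all tested probes). Those of 0 lay higher in both (1.21% of all tested probes). The genes described here are among these 5. *Slc2a4*, which encodes the insulin-responsive transporter GLUT4, had differences of −0.30 without and −0.48 with pargyline (averaged −0.39, adjusted p = 0.26). *Prkag3*, the AMPK gamma 3 subunit, had −0.62 and −0.79, and its averaged difference of −0.70 (1.63-fold, adjusted p = 0.16) had the smallest p of these 79 genes. *Eif4g1*, the scaffold of the cap-binding complex, and *Nras*, a RAS protein, had averaged differences of −0.37 and −0.16.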

How the data were processed

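Total RNA of the 12 hearts was labelled with Cy3 and hybridised to Agilent mouse arrays. The deposited scanner files hold linear spot intensity, background-subtracted by Feature Extraction (version 12.0.0.7 per the file headers, which differs from the version in the methods), with deposited flags of 0 or 1 (other values) for outliers and detection. The authors compared groups by *t*-tests with Bonferroni correction. They quantile normalised the arrays, and the deposited table of such intensity was used as an alternative only.

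Intensities were log2 transformed and quantile normalised, control and outlier-flagged spots were left out, and a probe was kept if, in each of the 4 groups, 50% or more of its spots carried the positive-and-significant flag. This left 30859 of 56605 probes, of whose values 2.03% lacked the flag and were kept. All were fitted with limma 3.58.1 in R 4.3.3 (1 mean per group, two-sided, adjusted p threshold 0.05), with Python 3.11.15 and matplotlib 3.10.9 for tables and figures. Residual degrees of freedom were 8, with 2.62 prior degrees of freedom. Precision is limited by 3 arrays per group. The scripts were tested on simulated data.

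Groups came from the sample titles. Members and lists were chosen with earlier results of these data known. Values on each array are given for genes that passed a threshold, that separated in both diabetes comparisons, that had the 3 smallest unadjusted p (if under 0.05) in each pargyline comparison or the interaction, and for 11 genes set by name; others named were picked after their values were seen. Coordinates of probes are mm9 as in the files, and those of sequences GRCm38.p6 from RefSeq. The transcript region under each probe was not determined. An item that falls among the other pathway genes is counted there but not described here.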

Additional observations from a re-analysis of the deposited data

How the results depend on the processing

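The limits are 3 arrays per group, slide and row that cannot be told apart from the groups, dim second probes, and single arrays such as D replicate 1. Settings covered scaling, background correction, the deposited table, filters, array weights, blocks, tests, probe choice and leaving out arrays. The count of members past the adjusted threshold was 0 in every comparison and setting, except with array weights, which called 1 member (*Irs2*) for D against C (0.904% of all tested probes) and 1 (*Irs2*) for C + P against C (0.668%). Replicate numbers did not clearly pair the arrays. Correlations of same-numbered arrays ran from −0.204 to 0.200, and the highest with another number from −0.095 to 0.204. For C + P against C the same-numbered correlation was the higher for every replicate, for D + P against C + P only for replicate 1. With the replicate block 0 members were called, the median change of members was −0.05 and 2 members did not overlap in both diabetes comparisons. That count of 2 was 4 with 75th percentile scaling and 2 to 5 when 1 array was left out (4 without C replicate 1, 5 without C + P replicate 1). It was 10 (19.4% of all probes) when replicate 1 of all 4 groups was left out, a setting chosen after seeing the data, which also gave 31 members without overlap between D and C (56% of all probes). The median change of members was −0.0992 to −0.0343 when 1 array was left out, with the lowest value without C + P replicate 2. The averaged *Irs1* difference was −0.0325 with normexp and −0.0374 to 0.361 when 1 array was left out, with the lowest value without C + P replicate 3. That of *Mtor* was 0.0936 with array weights, 0.0648 as the mean of all probes, between −0.132 and 0.0999 when 1 array was left out (positive without replicate 1 of C, D or D + P) and 0.2299 without replicate 1 of all groups. That of *Inpp4a* was −0.223 to 0.0026 when 1 array was left out (highest without D replicate 3), and that of *Prkaa2* was 0.2456 without replicate 1 of all groups. The cause was not tested.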
